A study of Mus musculus with 18 samples.

Results

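miR-126a is the microRNA that marks endothelial cells, the cells that line blood vessels, and both arms of its hairpin were followed here in mouse kidney. The members were the table entries named mmu-miR-126a-3p and mmu-miR-126a-5p, which were 2 of 1534 entries. Each arm had 1 entry, its values as deposited were exactly whole (no tolerance) in 18 of 18 libraries, and no other entry had exactly the same values in every library. Small RNA was sequenced from kidneys of 3 groups with 6 libraries each. Controls were of the strain C57BL/6J and received 0.9% saline. Mice with diabetic nephropathy (DN) were of the strain C57BL/KsJ and also received saline. In the treated group, mice of the DN strain received 10 mg/kg/day of germacrone, which is a sesquiterpene from plants. The allele or agent that made the DN mice diabetic, and the ages of the animals, are not given in the labels used here. Wherever control is compared with another group, strain and disease therefore cannot be told apart. The labels do not tie libraries to animals, and p-values here reflect the spread among these samples, which may be technical.

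The miR-126 hairpin lies in an intron of Egfl7, a gene for a protein secreted by endothelial cells, and is made with it. Its 3p arm is known to repress Spred1 and Pik3r2, which restrain signals from vascular growth factor receptors, and Vcam1, an adhesion molecule for leukocytes. The 5p arm is known to repress Dlk1, an inhibitor of Notch signals, and to sustain endothelial proliferation. Mice without miR-126 have leaky and fragile vessels. Outside endothelium the miRNA is also found in blood progenitors, megakaryocytes and platelets. In kidney it is carried by the glomerular and peritubular capillaries, whose damage is part of diabetic nephropathy.

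The mature 3p sequence and the hairpin are shown because every value below rests on reads assigned to them, and the antisense miR-126b because its hairpin is read from the opposite strand of the same DNA. RefSeq placed the miR-126a hairpin at chr2:26591357-26591429 on the plus strand of GRCm38.p6, and mature miR-126a-3p at chr2:26591402-26591423. In the GENCODE annotation of the same assembly, Egfl7 spanned chr2:26580014-26593120 on the plus strand. The hairpin lay in intron 7 of an annotated Egfl7 transcript, at chr2:26591064-26591663, and inside an intron of 8 of the 19 annotated Egfl7 transcripts, while an exon of 1 transcript overlapped it. No source used here names the genome build behind the deposited counts, and these positions are those of the references. Capitals mark the seed (bases 2 to 8) in the mature sequences and the whole 3p arm (bases 46 to 67) in the hairpin.
miR-126a-3p: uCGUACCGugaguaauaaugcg
mir-126a hairpin: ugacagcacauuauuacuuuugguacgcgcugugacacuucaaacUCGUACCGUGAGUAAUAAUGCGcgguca
miR-126b-5p: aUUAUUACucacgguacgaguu
miR-126b-3p: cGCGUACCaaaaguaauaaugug
The miR-126b hairpin was the exact reverse complement of a stretch of the miR-126a hairpin, and miR-126b-5p covered 19 of the positions of miR-126a-3p on the other strand. No other mature mouse sequence in the RefSeq table shared the seed CGUACCG. The deposited table held an entry for miR-126b-3p with 5 counts in control 4 and 0 in the other 17 libraries. A count of 0 allows a share of up to 4.15e-05% in the deepest library and 8.24e-05% in the shallowest. The arms of miR-126a held 8065 to 77877 counts per library.

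Both arms were abundant in every library. miR-126a-3p made up 0.633% to 1.55% of the named counts of a library and ranked between place 17 and place 34 among mouse names. miR-126a-5p made up 0.147% to 0.965% and ranked between place 26 and place 66. The named counts of a library totalled from 3699169 to 6652699 among controls, from 3639788 to 7236245 among DN and from 3653794 to 5969386 among treated kidneys. At such counts the counting error was small: the 8065 counts of miR-126a-5p in DN 3 were 0.188% of that library with an exact Clopper-Pearson 95% interval of 0.183% to 0.192%. These intervals and limits cover counting error only.

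Libraries that stood apart were also looked for, after the data had been seen. The median Pearson correlation of log2 CPM (CPM being counts scaled to library size, here with TMM factors) with the other libraries of its group was lowest for DN 2 (0.896), DN 3 (0.926) and control 2 (0.946). The remaining 15 libraries had values from 0.958 to 0.973. These same 3 libraries had the lowest miR-126a-5p levels of all 18. Results are therefore given with and without them, a choice made after seeing the data. Leaving out the libraries of lowest miR-126a-5p narrows the spread of that arm by construction.

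Among controls, miR-126a-3p was lowest at 7847 CPM, had a median of 12427 and was highest at 14871, for a mean of 12051 ± 2803 CPM (SD, n = 6). In DN it was lowest at 5287, had a median of 11445 and was highest at 14566, for a mean of 10268 ± 3682 CPM (SD, n = 6). Treated libraries ran from 10464 over a median of 13210.1 to 16028, for a mean of 13394 ± 1819 CPM (SD, n = 6). The low control was control 2, and the low DN libraries were DN 2 at 5287 and DN 3 at 6271 CPM. The other 4 DN libraries, at 11019 to 14566 CPM, lay within the range of the controls. By mean the order was treated, control, DN, and the ranges of neighbouring groups overlapped throughout.

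miR-126a-5p varied more. Its level in controls was lowest at 1325 CPM, with a median of 6963 and a highest value of 9256, for a mean of 6334 ± 3043 CPM (SD, n = 6). In DN the lowest was 1762, the median 8101 and the highest 9117, for a mean of 6426 ± 3288 CPM (SD, n = 6). In treated libraries the lowest was 5755, the median 8762 and the highest 9949.6, for a mean of 8109 ± 1809.5 CPM (SD, n = 6). Control 2 at 1325, DN 3 at 1762 and DN 2 at 2719.8 CPM were far below the rest, followed by control 3 at 4349. The lowest treated libraries were treated 6 at 5755 and treated 5 at 5958 CPM. By mean the order was treated, DN, control, with DN and control closer to each other than either SD.

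**Figure D1:**
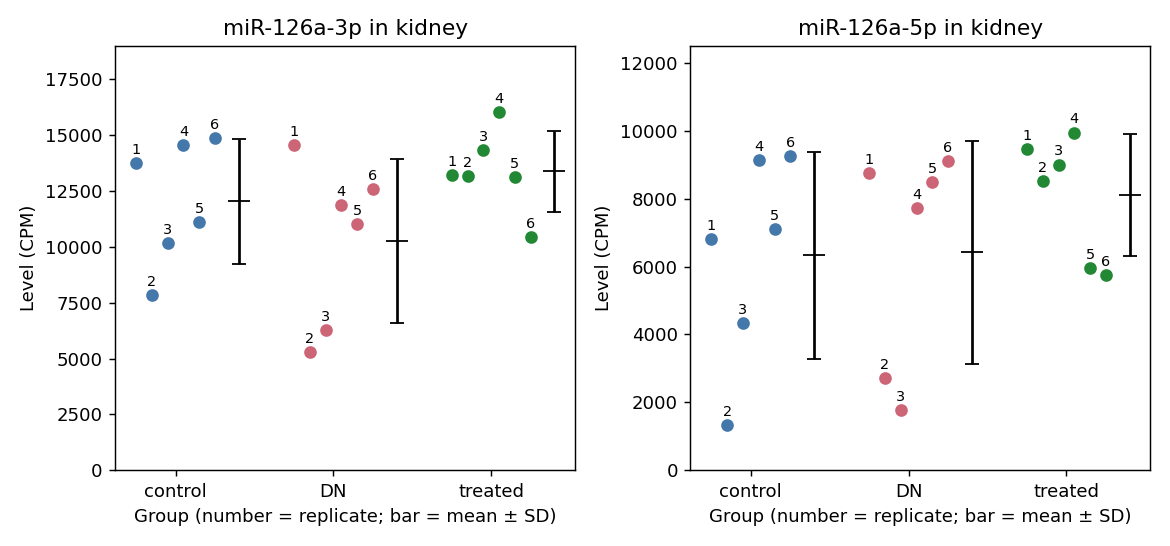
Level of miR-126a-3p (left) and miR-126a-5p (right) in CPM on linear axes, with 1 point per library labelled by replicate number and bars for mean ± SD of the 6 libraries in each group. Control 2, DN 2 and DN 3 are the lowest points for the 5p arm, at 1325, 2719.8 and 1762 CPM, and no group is separated from another.

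The coefficient of variation of miR-126a-3p was 23.3% in control, 35.9% in DN and 13.6% in treated libraries. For miR-126a-5p it was 48.0%, 51.2% and 22.3%. Without control 2, DN 2 and DN 3 it was 16.5% in control and 12.1% in DN for the 3p arm, and 27.4% and 6.99% for the 5p arm. The treated libraries, all kept, had the smallest spread of the 3 groups with every library included, but not once those 3 were left out. Fitted over all groups, the biological coefficient of variation was 0.293 for miR-126a-3p and 0.494 for miR-126a-5p, against 0.5 in common for all entries.

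DN against control asked whether the endothelial miRNA differed in diabetic kidney. Neither arm passed the test. For miR-126a-3p the log2 fold change was −0.23 (SE 0.224, 95% interval −0.70 to 0.24, edgeR quasi-likelihood adjusted p = 0.856), the DN value being under the control median in 4 of 6 libraries. For miR-126a-5p it was 0.021 (SE 0.408, interval −0.83 to 0.88, edgeR adjusted p = 0.996), with 4 of 6 DN libraries above the control median. Expressed as ratios, the intervals run from 0.616-fold to 1.18-fold for the 3p arm and from 0.561-fold to 1.83-fold for the 5p arm. Changes of sizes inside these intervals are compatible with the values at this spread. Changes beyond them could also have missed the adjusted threshold. The background was that 0% of the 619 tested entries passed at an adjusted p under 0.05, 7.59% had an unadjusted p under 0.05 (47 entries), and 0% had groups that did not overlap. Median log2 fold change over all entries was 0.075. DESeq2 and limma-voom called 4 and 91 entries, and neither arm was among them (smallest adjusted p of either arm over all alternatives 0.397).

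Without control 2, DN 2 and DN 3, the log2 fold change of miR-126a-3p in DN against control was −0.055 (SE 0.134, 0.79-fold to 1.17-fold, edgeR adjusted p = 0.849). That of miR-126a-5p was 0.20 (SE 0.199, 0.859-fold to 1.54-fold, edgeR adjusted p = 0.575). The means in the remaining libraries were 12513 ± 1512 CPM in 4 DN and 12892 ± 2125 in 5 control libraries for the 3p arm. For the 5p arm they were 8518 ± 595 and 7335 ± 2013 CPM.

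Treated against DN asked whether germacrone changed the level of the miRNA in diabetic kidney. Both arms had higher means in treated libraries and neither passed. The log2 fold change of miR-126a-3p was 0.38 (SE 0.224, interval −0.086 to 0.85, 1.30-fold, edgeR adjusted p = 0.800), with 5 of 6 treated libraries above the DN median. That of miR-126a-5p was 0.34 (SE 0.408, interval −0.52 to 1.19, 1.26-fold, edgeR adjusted p = 0.895), with 4 of 6 above. Of 619 entries 0% passed at an adjusted p under 0.05, 3.72% had an unadjusted p under 0.05 (23 entries), and 0% had separated groups. By unadjusted p (0.104), miR-126a-3p came at place 67 of these entries and so was not among the 23. Leaving out DN 2 gave a log2 fold change of 0.23 for the 3p arm and 0.17 for the 5p arm, and leaving out DN 3 gave 0.26 and 0.13. Without all 3 libraries the values were 0.088 for miR-126a-3p (0.879-fold to 1.28-fold, edgeR adjusted p = 0.992) and −0.080 for miR-126a-5p (0.715-fold to 1.25-fold, edgeR adjusted p = 0.992), so that the 5p arm changed sign.

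The comparison of treated with control kidneys set germacrone-treated DN mice beside saline-treated controls. miR-126a-3p had a log2 fold change of 0.15 (SE 0.224, interval −0.32 to 0.62, 1.11-fold, edgeR adjusted p = 0.740), and 5 of 6 treated libraries lay above the control median. With library size only in place of TMM scaling its sign changed to −0.049. miR-126a-5p had 0.36 (SE 0.408, interval −0.50 to 1.21, 1.28-fold, edgeR adjusted p = 0.670, 4 of 6 above). In this comparison 0% of entries passed by edgeR, while 19.5% had an unadjusted p under 0.05 (121 entries) and 5.17% had groups that did not overlap. Neither arm was among either set. DESeq2 called 24 entries and limma-voom 106, without either arm. With control 2, DN 2 and DN 3 left out, the values were 0.032 and 0.12 (edgeR adjusted p = 0.921 and 0.723). The 3 comparisons share libraries in pairs, so their values are not independent of each other.

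**Figure D2:**
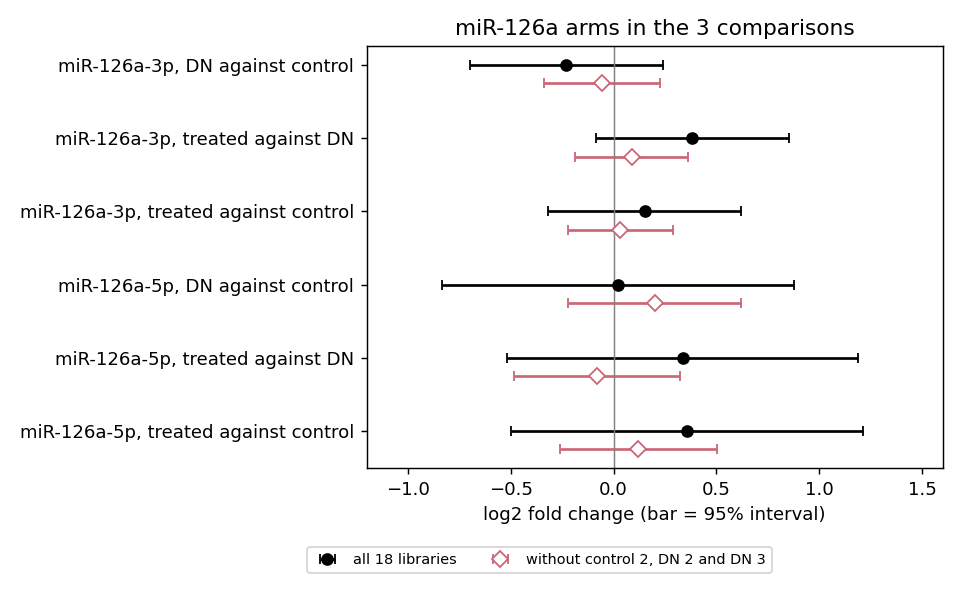
Log2 fold change of each arm in the 3 comparisons with 95% intervals, for all 18 libraries (filled circles) and without control 2, DN 2 and DN 3 (open diamonds). Every interval includes 0, and the diamonds run from −0.080 to 0.20.

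In bulk kidney RNA, a smaller share of endothelial cells and less miR-126 per endothelial cell cannot be told apart. The other miRNAs described as enriched or active in endothelium gave a mixed picture. Of 21 listed, 19 were tested. In DN against control 10 were higher and 9 lower, with a median log2 fold change of 0.029 against 0.075 over all entries. In treated against DN 7 were higher and 12 lower (median −0.011 against −0.054). In treated against control 8 were higher and 11 lower (median −0.024 against −0.0035). By edgeR, 0 of the 19 passed in each comparison, where 0% of all entries passed. An unadjusted p under 0.05 was found for 1, 0 and 6 of the 19, where 7.59%, 3.72% and 19.5% of all entries had one. Summed over the 19, levels ran from 87123 to 101714 CPM among controls, from 92111 to 107830 among DN and from 97354 to 122322 among treated libraries. Control 2 was at 93819 CPM, against a control median of 90657. DN 3 was at 95174 and DN 2, the lowest DN library, at 92111, against a DN median of 95989. The list had been drawn up with earlier results of these data known, and many of its members are also expressed by other kidney cells.

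The 6 most abundant of them show the range. miR-10a-5p, a miRNA of a Hox cluster that restrains inflammatory signals in endothelium, was at 27910 ± 6083 CPM in control, 32185 ± 9814 in DN and 40727 ± 7093 in treated kidneys (SD, n = 6 each). miR-27b-3p, of a cluster involved in vessel sprouting, was at 15436 ± 2726, 19053 ± 5446 and 22521 ± 1716 CPM. Their log2 fold changes in treated against control were both 0.55, with edgeR adjusted p = 0.186 and 0.173. miR-23b-3p of the same cluster had log2 fold changes between −0.0047 and 0.031 in the 3 comparisons. Its paralog miR-23a-3p had −0.11 in DN against control and −0.20 in treated against control. In DN 2 it held 15644 CPM, against a DN mean of 8242 ± 3670. Near-identical miR-27a-3p lay at 4365 ± 199 CPM in control, 4327 ± 1283 in DN and 4293 ± 634 in treated kidneys, with DN 2 at 6749. Reads of miR-27a and miR-27b may have been split between them by the counting. By contrast, miR-10a-5p and miR-27b-3p were under their DN means in DN 2, at 19940 and 11051 CPM. miR-99b-5p, which shares a hairpin cluster with let-7e and miR-125a, was at 10786 CPM in control 2 and 9578 in DN 3, the libraries with the least miR-126a-5p, against means of 6238 ± 2332 in control and 6364 ± 1886 in DN.

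Markers of other kidney and blood cells were read in the same libraries. Leukocyte miRNAs (7 of 8 listed were tested) had sums from 3176 to 4225 CPM among controls, from 1589 to 25946 among DN and from 1847 to 9117 among treated libraries. DN 2 held the 25946 CPM, and the medians were 3666 in control, 1847 in DN and 1994 in treated libraries. By the fitted value all 7 were higher in DN than in control and all 7 lower in treated than in DN. Both directions were opposite to the order of the medians. The median log2 fold changes were 0.91 and −1.58, against 0.075 and −0.054 over all entries. By edgeR 0 passed. In DN against control, treated against DN and treated against control, 1, 4 and 1 of the 7 had an unadjusted p under 0.05. Of all entries 7.59%, 3.72% and 19.5% had such a p. miR-146a-5p, the most abundant of them, held 11555 CPM in DN 2 against a control mean of 2333 ± 424 (SD, n = 6). DN 2 also had the smallest sum of the 11 tubule and podocyte miRNAs, led by miR-30a-5p, at 82386 CPM against a DN median of 240050, so that low miR-126a-3p in DN 2 stood beside many leukocyte and few epithelial miRNAs. In DN 3, by contrast, leukocyte miRNAs summed to 2360 CPM and tubule and podocyte miRNAs to 199578. Control 2 was at 4225 and 221583 CPM. By the fitted values, 7 of the 11 tubule and podocyte miRNAs were higher and 4 lower in DN than in control (median log2 fold change 0.089 against 0.075 over all entries). In treated against DN 10 were higher and 1 lower (median 0.23 against −0.054), and in treated against control 9 were higher and 2 lower (median 0.50 against −0.0035). By edgeR 0 of the 11 passed, and 1, 0 and 4 had an unadjusted p under 0.05, beside the 7.59%, 3.72% and 19.5% of all entries. The means of miR-126a-3p were likewise highest in treated libraries. The part of these cell types in the miR-126a values was not tested.

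Vessel wall cells other than endothelium were followed by 8 mural miRNAs, 8 of 8 tested. Their sums ran from 28532 to 61256 CPM among controls, from 24408 to 54163 among DN and from 43337 to 63224 among treated libraries, with the lowest control value in control 2 and the lowest DN value in DN 3. The most abundant of them, smooth muscle miR-143-3p, was at 33366 ± 13399, 33199 ± 11372 and 42832 ± 7141 CPM (SD, n = 6 each) with a log2 fold change in treated against DN of 0.37 (edgeR adjusted p = 0.800). Over the list, 3 were higher and 5 lower in DN against control (median −0.038), 4 and 4 in treated against DN (median 0.0066), and 5 and 3 in treated against control (median 0.12). The 5 red cell miRNAs, led by miR-451a, summed to 1822 to 3946, 1272 to 4287 and 1346 to 5367 CPM, with the lowest control value in control 2 and the lowest DN value in DN 2. Liver, striated muscle and nerve or endocrine markers, led by miR-122-5p, miR-1a-3p and miR-7a-5p, were rare: 1, 2 and 4 were tested, and their sums were at most 118, 292 and 973 CPM in any library. By edgeR 0 members of any list passed. Since 0% of all entries passed in each comparison, that count could not have set a list apart. In DN against control, treated against DN and treated against control, an unadjusted p under 0.05 was found for 0, 0 and 0 of the 8 mural miRNAs. For the 5 red cell miRNAs the counts were 0, 0 and 0, and for the 1 liver miRNA 0, 1 and 0. For the 2 striated muscle miRNAs they were 1, 0 and 1, and for the 4 nerve or endocrine miRNAs 2, 0 and 3. Of all entries 7.59%, 3.72% and 19.5% had such a p. Calls of list members by DESeq2 and limma-voom were not counted.

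The arms of 1 hairpin come from the same precursor, so their ratio within a library does not depend on library size or scaling. The 5p arm supplied 14.5% of miR-126a counts in control 2, a median of 35.7% and at most 39.0% among controls. In DN it supplied 21.9% in DN 3, a median of 38.5% and at most 43.5%. In treated libraries it supplied 31.2% to 41.7%, with a median of 38.4%. The 3p arm was the more abundant in 18 of 18 libraries. The mean log2 ratio of 5p to 3p was −1.13 ± 0.739 in control, −0.83 ± 0.531 in DN and −0.75 ± 0.228 in treated libraries (SD, n = 6 each).

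No comparison of the arm ratio passed. In DN against control the difference in mean log2 ratio was 0.30 (SE 0.371, 2-sided exact permutation p = 0.476, adjusted p = 0.714 over 3 comparisons, 4 of 6 DN libraries above the control median). In treated against DN it was 0.086 (SE 0.236, exact permutation p = 0.792, adjusted p = 0.792, 3 of 6 above). In treated against control it was 0.39 (SE 0.316, exact permutation p = 0.242, adjusted p = 0.714, 4 of 6 above). The smallest p that 6 against 6 libraries allow is 0.00216. Without control 2, DN 2 and DN 3 the differences were 0.30, −0.20 and 0.10 (exact permutation p = 0.127, 0.176 and 0.494). Leaving out DN 3 alone turned the sign in treated against DN, to −0.11. In DN against control, leaving out control 2 alone gave 0.016.

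**Figure D3:**
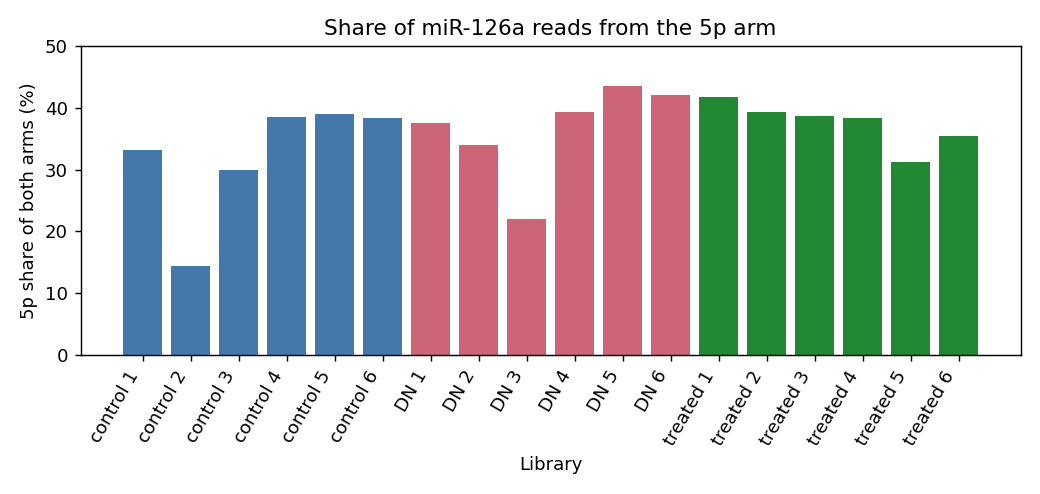
Share of miR-126a counts that came from the 5p arm, in percent, with 1 bar per library coloured by group and the axis starting at 0. Control 2 at 14.5% and DN 3 at 21.9% stand below the other 16 libraries, which lie between 30.0% and 43.5%.

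Although their ratio differed, the arms moved together. Across the 18 libraries, Pearson r of their log2 CPM was 0.864 and Spearman rho 0.856. Leaving out DN 2 and DN 3, the libraries farthest from the median of the 3p arm, gave r = 0.841, and leaving out control 2 as well gave 0.708. Within groups r was 0.931 in control, 0.927 in DN and 0.779 in treated libraries (n = 6 each). These are descriptions, since both arms are read in the same library and share its composition. In the plot of both arms, DN 2 had low levels of both with an arm ratio of 0.514, near that of control 1 at 0.496. Control 2 and DN 3 were lower in the 5p than in the 3p arm relative to the other libraries, with ratios of 0.169 and 0.281.

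**Figure D4:**
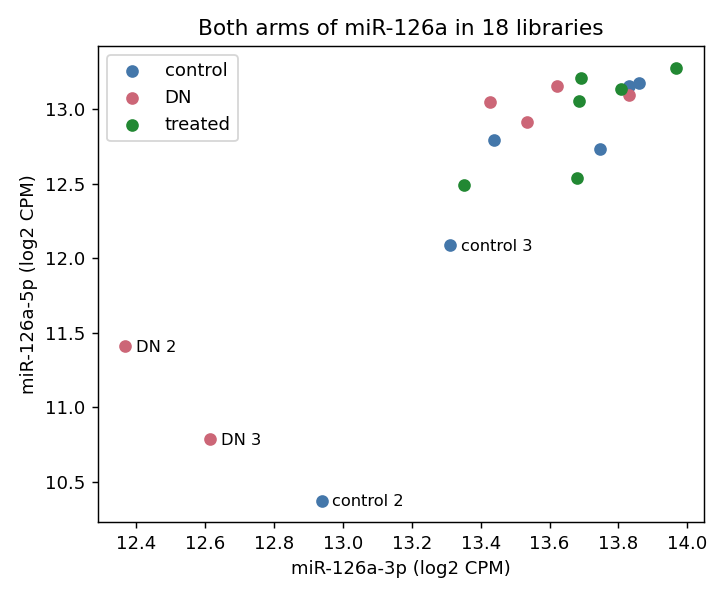
Log2 CPM of miR-126a-5p against miR-126a-3p, with 1 point per library coloured by group. Most libraries form a cloud at upper right, and control 2, DN 2 and DN 3 lie apart at lower levels, with control 2 farthest down in the 5p arm (10.4) at 12.9 in the 3p arm.

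Arm ratios of other hairpins were read in the same way. For 27 hairpins both arms had a mean of at least 100 CPM. The pooled within-group SD of the log2 arm ratio was 0.541 for miR-126a, place 7 from the most variable, against a median of 0.364. Without control 2, DN 2 and DN 3 it was 0.22, place 18, against a median of 0.245. In control 2, the arm ratio was the highest or the lowest of the 6 controls for 23 of 27 hairpins (85.2%), against 7.41% to 40.7% in the other controls. Among DN libraries the share reached 51.9% for DN 3 and 44.4% for DN 2, with the remaining 4 between 11.1% and 37.0%. Among treated libraries it ran from 25.9% in treated 6 to 40.7% in treated 1. Every hairpin has a highest and a lowest library in each group, so the average share of a group is fixed by the rule. DN 2 lay near control 1 and treated 1, both at 40.7%. The shares within a group are not independent, since a high share in a library lowers those of the others. The low miR-126a ratio of control 2 was itself counted among the 23, and an extreme rank does not measure the size of a shift.

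The mouse miRNAs most like each arm were ranked by Pearson r of log2 CPM over the 18 libraries after subtracting group means, among 326 at a mean of at least 10 CPM. For miR-126a-5p they were miR-26b-5p (r = 0.980), let-7a-1-3p (0.962), miR-190a-3p (0.959), miR-450a-5p and miR-32-5p (0.947 each). For miR-126a-3p they were epithelial miR-200a-3p (0.960), miR-27b-3p (0.958), miR-190a-3p (0.942), miR-450a-5p (0.937) and miR-101c (0.932), the last with values exactly equal to those of a rat-named entry and so uncertain. The r between the arms was 0.890, and 13 miRNAs were more like the 3p arm and 19 more like the 5p arm than the other arm was. Without DN 2 the 3p arm was most like miR-195a-5p (0.957), miR-322-5p (0.954) and miR-152-3p (0.947), while miR-26b-5p kept the first place for the 5p arm (0.980, and 0.938 without all 3 libraries).

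miR-26b-5p, a miRNA of an intron of Ctdsp1, shows the shared pattern. It was at 6282 CPM in control 2, 8441 in DN 2 and 8474 in DN 3, against group medians of 14074 in control, 14103 in DN and 14237 in treated libraries. For miR-190a-3p the same 3 libraries held 0.949, 1.46 and 2.40 CPM against medians of 15.4, 20.8 and 17.5. Neither passed the threshold by edgeR in any comparison (adjusted p of 0.771 to 0.996 over both and the 3 comparisons). Their mature sequences, with those of the others most like miR-126a-5p, are shown for their base composition, with seeds in capitals and with 5′ ends at left, from RefSeq on GRCm38.p6.
miR-26b-5p: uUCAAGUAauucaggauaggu
let-7a-1-3p: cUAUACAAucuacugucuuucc
miR-190a-3p: aCUAUAUAucaagcauauuccu
miR-450a-5p: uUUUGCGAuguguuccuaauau
miR-32-5p: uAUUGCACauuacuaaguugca
Their GC content was 33.3%, 36.4%, 27.3%, 31.8% and 31.8%. The median over 278 mouse miRNAs with a sequence in the table was 47.6%, with quartiles of 40.9% and 54.5%, and miR-126a-3p itself had 45.5%. The sequences shown share no seed. Of the miRNAs most like miR-126a-3p whose sequences are not shown, miR-200a-3p had 40.9%, miR-27b-3p 47.6% and miR-101c 36.8%. The reference sequences used here held no mature miR-126a-5p, so its own GC content is not given.

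GC content was therefore set beside the levels in each library. Of 328 mouse miRNAs at a mean of at least 10 CPM, both arms of miR-126a included, 84.8% had a sequence. In each library the Spearman correlation was taken, across 277 miRNAs without miR-126a-3p, between GC content and the deviation of log2 CPM from the median over all libraries. It was 0.687 in control 2, 0.577 in DN 3, 0.539 in control 3 and 0.356 in control 5, meaning that GC-rich miRNAs were relatively high and AU-rich ones low there. It was 0.167 in DN 2 and 0.281 in treated 5. Treated 1 to treated 4 ran from −0.434 to −0.332 and DN 6 was at −0.437. miRNAs are not independent replicates, and these values describe the libraries.

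Across the 18 libraries, the log2 arm ratio of miR-126a was lower where this GC relation was higher, with Pearson r of −0.811 and Spearman rho of −0.765. Leaving out control 2 and DN 3, the farthest from the median, gave r = −0.753. Within groups r was −0.728 in control, −0.943 in DN and −0.950 in treated libraries (n = 6 each). For the level of miR-126a-5p the r was −0.840 over all libraries, and −0.733 without control 2 and DN 3. For that of miR-126a-3p it was −0.671, and −0.495 without the same libraries. In control, DN and treated libraries, r was −0.834, −0.945 and −0.938 for the level of the 5p arm. For that of the 3p arm it was −0.967, −0.801 and −0.538. All of these measures are read from the same 18 libraries and share their composition. The part of base composition in the arm ratio was not tested.

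**Figure D5:**
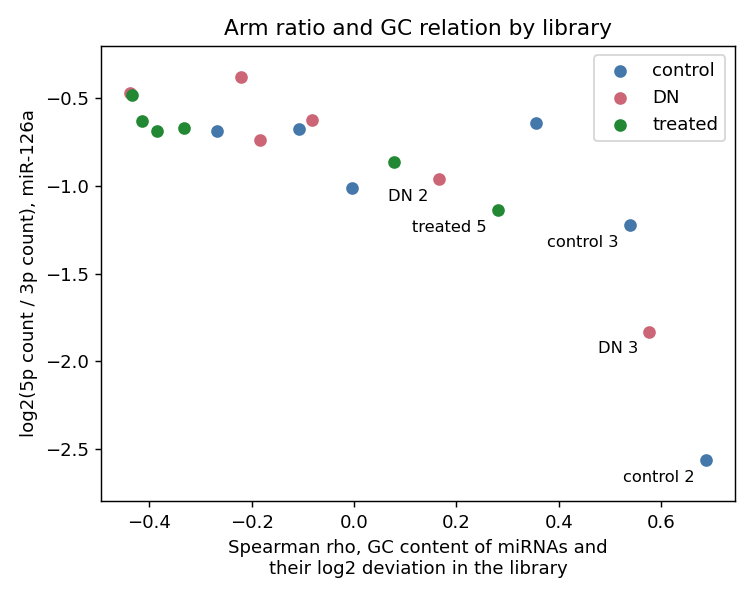
Log2 ratio of miR-126a-5p to miR-126a-3p counts (y) against the Spearman correlation, across 277 other miRNAs, of GC content with the log2 deviation in that library (x), with 1 point per library coloured by group. The ratio was −0.47 in DN 6 at a correlation of −0.437 and −2.57 in control 2 at 0.687. Control 5, at a correlation of 0.356, had the highest ratio of the controls, −0.64.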

How the data were processed

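Per the labels' protocols, kidney RNA was extracted with Trizol, made into TruSeq small RNA libraries, sequenced on an Illumina HiSeq and filtered with ACGT101-miR. Per the submitters' processing notes, Trimmomatic 0.32, BWA, SAMtools and edgeR were also used, with roles that the notes do not state. The authors' raw columns held estimated counts (76.9% of values above 0 were exactly whole, with no tolerance), which were rounded. The deposited normalized columns held a signal, in which each library's raw values were multiplied by a single factor of 0.6644 to 1.427. Unnamed entries (350, at most 0.148% of a library's counts) were left out.

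The 1184 named entries were filtered with filterByExpr (minimum count 10, minimum total 15), which kept 619. They were scaled by TMM and fitted over all 18 libraries with group as the only factor in edgeR 4.0.16 (R 4.3.3, quasi-likelihood, legacy method, 2-sided), with Benjamini-Hochberg adjustment over 619 entries and a threshold of 0.05. Log2 CPM used a prior count of 2. For names on more than 1 entry, the entry of highest mean was used in lists and rankings. The fitting was tested on simulated data, with an outcome that is not given here. Arm ratios were compared by exact permutation over libraries. Miss of a threshold does not show equal levels. For likeness the 5 highest correlations per arm were named, and for lists the most abundant members. Alternatives were RLE factors, library size only, the authors' factors, other filters, DESeq2 1.42.0, limma-voom with sample weights (limma 3.58.1), a robust prior, a replicate block, 2 groups only, summed or collapsed entries, medians for the ratio and each library left out. The members and lists were chosen with earlier results of these data known, and the GC content, other-hairpin and library comparisons were added after seeing the data.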

Additional observations from a re-analysis of the deposited data

Results flagged for a closer look

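The arm ratio of miR-126a in control 2 stood apart from the other controls. Its log2 ratio of 5p to 3p was −2.57, and the gap to the next control, divided by the range of the 6 controls, was 0.697, above Dixon's 95% critical value for 6 samples. The rule was applied to 9 sets of 6 values, the CPM of each arm and the log2 arm ratio in each group, and chance flags about 1 in 20 groups. Control 2 also had the strongest relation of miRNA levels to GC content (Spearman rho 0.687), and the part of base composition in its arm ratio was not tested.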

How the results depend on the processing

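Neither arm, nor the arm ratio, passed an adjusted p of 0.05 in any comparison under any alternative run (31 for each arm and 16 for each ratio), and the smallest adjusted p was 0.264. Of the 16, summing the entries of a name repeated the main ratio by construction, because each arm had 1 entry. Signs turned for miR-126a-5p in DN against control with library size only (−0.081) and in treated against DN without control 2, DN 2 and DN 3 (−0.080), for miR-126a-3p in treated against control with library size only (−0.049), and for the arm ratio in treated against DN by medians (−0.00065) and without those 3 libraries (−0.20). With each library left out in turn, miR-126a-5p in DN against control ranged from −0.10 to 0.21 and the arm ratio in treated against DN from −0.11 to 0.18. The causes were not tested.

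Counts of called entries, 0 in each comparison by edgeR, were 0 in treated against DN under every alternative. In DN against control they were 2 with a filter of 10 CPM in 6 libraries, 4 by DESeq2, 91 by limma-voom, 51 without the 3 libraries and 0 to 6 with each library left out. In treated against control they were 24 by DESeq2, 106 by limma-voom, 56 with only the 2 groups, 50 without the 3 libraries and 0 to 7 with each left out.

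Same-numbered libraries did not deviate together (r of −0.329 to 0.262, and 1, 0 and 0 of 12 libraries correlated best with their own number). With the replicate number as a block, log2 fold changes were −0.26, 0.47 and 0.21 for miR-126a-3p and 0.016, 0.61 and 0.62 for miR-126a-5p in DN against control, treated against DN and treated against control, with 0 calls. Paired differences in the arm ratio under the block were 0.30, 0.086 and 0.39 (exact sign-flip test, adjusted p = 0.703, 0.781 and 0.703). Counting error was small beside the spread between libraries, and what limited these comparisons was not tested.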
